A study of Mus musculus with 16 samples.

Results

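The 10 genes described here are the Hedgehog pathway genes Ihh, Dhh, Ptch1, Hhip, Gli1 and Gli2 and the smooth muscle genes Myh11, Acta2, Cnn1 and Tagln, out of 57010 genes counted. They were taken from the deposited counts by symbol and were chosen because Gli1 and Myh11 are lower in granulosa cells of endometriosis model mice than of sham-operated mice. Their values in that comparison are therefore given as a description, without a test. The stated reason for the choice does not use treatment of cultured cells or culture itself, and there the differences were tested. Earlier results of these data were known when the genes were chosen, so these tests were not blind to them.

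Hedgehog ligands are secreted proteins that bind the receptor Ptch1 and thereby release Smo, after which Gli transcription factors switch on target genes that include Gli1, Ptch1 and Hhip. In the ovary, granulosa cells are the known source of Ihh and Dhh, and the surrounding theca and stroma are the known site of the response. Theca also holds smooth muscle cells, whose contractile apparatus contains the myosin heavy chain Myh11, the actin Acta2, and the actin-binding proteins Cnn1 and Tagln.

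RNA of mouse granulosa cells (mGCs) was sequenced in 16 libraries. All mice were ICR females, and the model was set up in mice 6 weeks old. Con-mGC (n = 5) is from mice with sham surgery and EM-mGC (n = 5) is from mice that received endometrium of estradiol-treated ICR donors on the serosa of the intestinal mesentery. Recipients kept their ovaries and were given estradiol, which was followed by a washout and by ovulation induction with gonadotropin. These 10 libraries are called fresh below. PBS (n = 3) and EET (n = 3) are mGCs of EM model mice that were cultured and then kept for 24 h with vehicle or with 100 nM 14,15-EET, an epoxide of arachidonic acid. No sort of the mGCs is described in the sources used here, so the isolates can hold other ovarian cells.

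Total counts ranged from 14462398 to 15999234 in Con-mGC, from 14229123 to 15072324 in EM-mGC, from 21384686 to 27728777 in PBS and from 23823566 to 29482826 in EET. Levels of one gene across libraries are given as CPM, which is the count scaled to library size, by edgeR with TMM factors, and levels of different genes are compared as TPM, which corrects in addition for exon length. Con-mGC replicate 1 stood apart with 22071 genes that had a read, against 25080 to 27642 in the other fresh libraries. Its mean correlation with the rest of its group was 0.962, against 0.976 to 0.978 for the other Con-mGC libraries. EM-mGC replicate 3 also stood apart. Mitochondrial genes took 21.8% of its counts, against 6.76% to 11.1% in the Con-mGC libraries, and 5 red blood cell genes summed to 17411 CPM, against 2647 to 6147 CPM in the other fresh libraries. EM-mGC replicate 2 had the lowest summed level of 10 stromal fibroblast genes, 671 CPM, and EM-mGC replicate 4 had the lowest summed level of 10 granulosa genes, 5296 CPM. Log2 fold changes between EM-mGC and Con-mGC are given also without some of these libraries.

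The labelled cell type was visible in its markers. Inha, which encodes the inhibin alpha subunit made by granulosa cells, had a mean level of 15802 TPM in Con-mGC, and none of the 10 granulosa genes was at 0. Markers of other ovarian cells were present too. Cyp17a1, the enzyme of theca androgen synthesis, was at 196 ± 44.3 CPM in Con-mGC (SD, n = 5). Hsd3b1, a steroid enzyme, was the most abundant of 8 theca genes at 11840 TPM, but its level did not go with that of Cyp17a1. In PBS Hsd3b1 was at 4470 TPM while Cyp17a1 had 2 reads in all, so Hsd3b1 is not read as a measure of theca cells. The few Cyp17a1 reads do not show whether theca cells were absent there. No gene of the theca, stromal, pericyte or endothelial lists was at 0 throughout Con-mGC or EM-mGC. The fresh libraries are thus mixtures by their markers, and in such bulk samples fewer cells of a type and less RNA per cell cannot be told apart. The name theca smooth muscle refers to where these genes are known to be used, since the counts do not locate a transcript in a cell.

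Among the 10 genes in Con-mGC, Acta2 was the most abundant at 352 ± 77.8 TPM (SD, n = 5), followed by Ihh at 179 ± 38.0 TPM. Dhh, Myh11, Cnn1 and Ptch1 came next at 24.2, 23.05, 17.9 and 15.96 TPM. The ranges of Dhh and Myh11 overlapped, as did those of Cnn1 and Ptch1. Gli2 (5.86 TPM) and Gli1 (4.94 TPM) overlapped each other, and so did Tagln (1.88 TPM) and Hhip (1.30 TPM). In EM-mGC the order differed in the middle, with Ptch1 at 13.0 TPM above Myh11 at 11.03 TPM and Cnn1 at 8.94 TPM, though the ranges of these neighbours overlapped. In PBS, Acta2 led at 911 TPM and Cnn1 was second at 12.7 TPM, while Ihh had moved to the seventh place at 1.77 TPM. Cnn1 overlapped Ptch1 there, at 11.8 TPM, and Ihh overlapped its neighbours Myh11 (2.31 TPM) and Gli2 (1.21 TPM).

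Tagln needs a caution, since 67.9% of its exon bases are also covered by Pcsk7 and Gm48529 on the other strand in the GENCODE M21 annotation. The strand setting of the counting is not given in the sources used here, so Tagln counts are uncertain. For Dhh the share was 25.2%, with Rhebl1 on the same strand and Gm49442 on the other. For Gli1 it was 6.55%, for Hhip 1.93%, and for the other 6 genes it was 0.

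**Figure D1:**
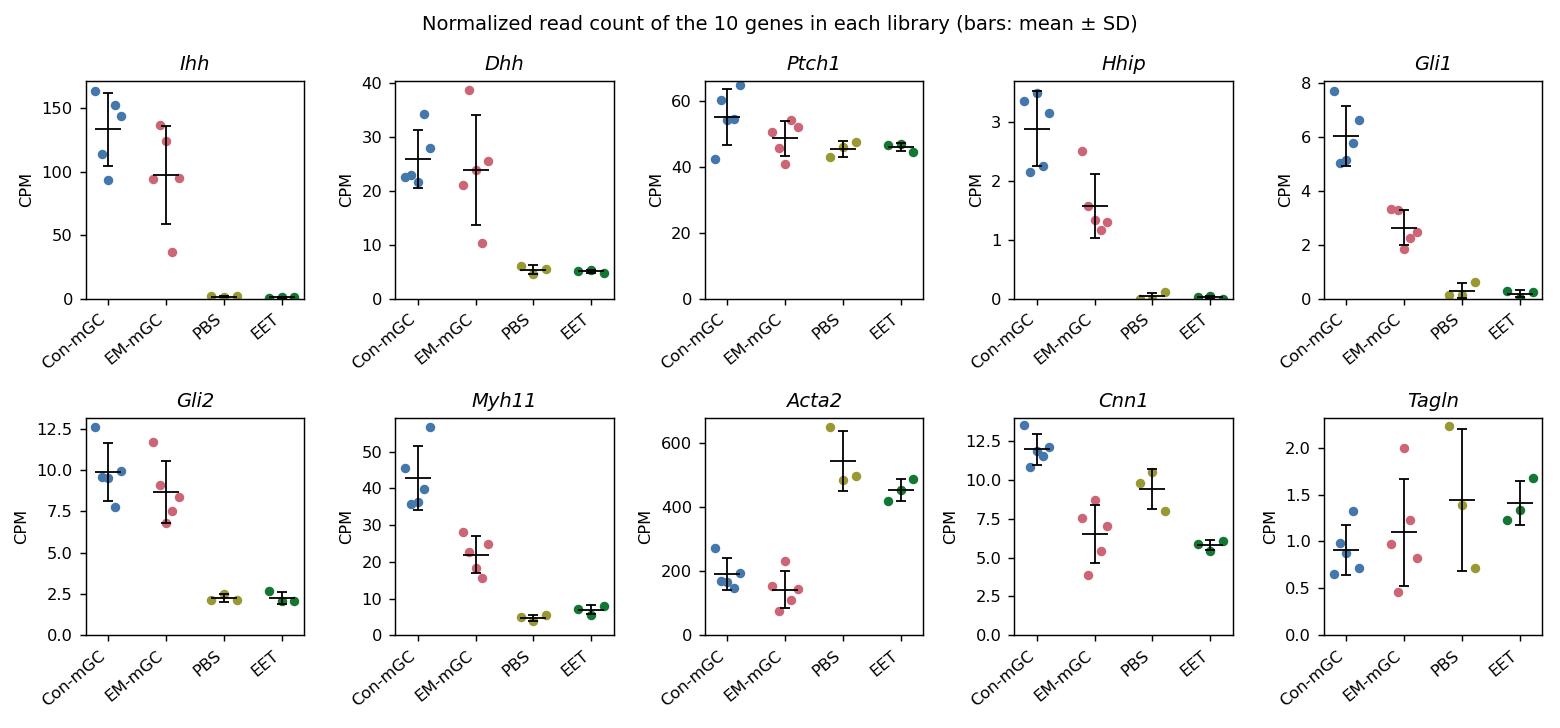
Normalized read count (CPM, linear axes from 0) of each of the 10 genes in every library, with 1 point per library in 4 groups (Con-mGC and EM-mGC n = 5, PBS and EET n = 3) and bars for mean ± SD. Fresh and cultured libraries were normalized separately. Every EM-mGC point lies below every Con-mGC point for Gli1, Myh11 and Cnn1, and Ihh, Hhip and Gli1 are near 0 in both cultured groups.

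The ligand genes differed little between EM-mGC and Con-mGC beside their spread. Ihh (ENSMUSG00000006538, chr1:74984474-74990831, minus strand, GRCm39) was at 163, 114, 93.5, 152 and 144 CPM in the Con-mGC libraries. In the EM-mGC libraries Ihh was at 94.1, 137, 124, 36.7 and 95.1 CPM. The groups overlapped, with 1 low library, EM-mGC replicate 4, which also had the lowest granulosa gene sum. The log2 fold change of Ihh was -0.45 (SE 0.28). Dhh (ENSMUSG00000023000, chr15:98789033-98796421, minus strand) ranged from 21.6 to 34.3 CPM in Con-mGC and from 10.2 to 38.7 CPM in EM-mGC, with the lowest value again in EM-mGC replicate 4 and a log2 fold change of -0.11 (SE 0.27). Without EM-mGC replicate 4 the log2 fold change of Dhh was 0.08 and that of Ihh was -0.24. Shh, the remaining ligand gene, had 4 reads in all of Con-mGC and 5 in all of EM-mGC, and was not tested.

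Among the response genes, Gli1 was lower in EM-mGC, which is part of the reason for the choice of genes and so no finding. Gli1 (ENSMUSG00000025407, chr10:127165751-127177843, minus strand), the transcription factor whose own gene is a standard readout of the pathway, was at 7.69, 5.03, 5.13, 5.77 and 6.62 CPM in Con-mGC. In EM-mGC it was at 3.34, 3.29, 1.83, 2.25 and 2.48 CPM. All EM-mGC libraries were below all Con-mGC libraries, and the groups did not overlap. The log2 fold change was -1.19 (SE 0.23), and it was -1.09 without EM-mGC replicate 3 and -1.28 without EM-mGC replicate 2. Without Con-mGC replicate 1 it was -1.08.

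Hhip, which encodes a membrane protein that captures Hedgehog ligands, had few reads and a like difference. Hhip (ENSMUSG00000064325, chr8:80692480-80784635, minus strand) was at 3.35, 2.15, 3.50, 2.25 and 3.16 CPM in Con-mGC and at 2.51, 1.58, 1.33, 1.16 and 1.31 CPM in EM-mGC. EM-mGC replicate 1 was the only EM-mGC library inside the Con-mGC range, and the log2 fold change was -0.87 (SE 0.28). Without that library it was -1.10. The groups then no longer overlapped, which had to be so because it was the only library that did. Without EM-mGC replicate 2, 3 or 4 it was -0.87, -0.81 and -0.77.

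Ptch1, the receptor gene, and Gli2, the factor that relays the signal to target genes, were closer to equal. Ptch1 (ENSMUSG00000021466, chr13:63656142-63721412, minus strand) ranged from 42.3 to 64.7 CPM in Con-mGC and from 40.7 to 54.1 CPM in EM-mGC, a log2 fold change of -0.18 (SE 0.12). Gli2 (ENSMUSG00000048402, chr1:118761862-118981349, minus strand) ranged from 7.75 to 12.6 CPM in Con-mGC and from 6.80 to 11.7 CPM in EM-mGC, a log2 fold change of -0.19 (SE 0.19). Without EM-mGC replicate 2, 3 or 4 the log2 fold change of Ptch1 was -0.16, -0.13 and -0.22. That of Gli2 was -0.20, -0.11 and -0.14. When each fresh library was left out, Ptch1 ranged from -0.26 without Con-mGC replicate 1 to -0.12 without Con-mGC replicate 5. Gli2 ranged from -0.32 without EM-mGC replicate 1 to -0.07 without Con-mGC replicate 1. For both genes the groups overlapped, although Ptch1 is a target gene of the pathway like Gli1 and Hhip.

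Of the smooth muscle genes, Myh11 and Cnn1 were lower in every EM-mGC library. Myh11 (ENSMUSG00000018830, chr16:14012399-14109236, minus strand), the myosin heavy chain that defines mature smooth muscle, was at 45.6, 35.7, 36.1, 39.8 and 56.6 CPM in Con-mGC. In EM-mGC it was at 28.1, 22.7, 18.4, 15.6 and 24.8 CPM, which gave -0.96 (SE 0.18) on the log2 scale. The groups did not overlap, and the log2 fold change was -0.91 without EM-mGC replicate 3 and -0.97 without EM-mGC replicate 2.

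Cnn1 (ENSMUSG00000001349, chr9:22010512-22020926, plus strand), the actin-binding calponin of smooth muscle, was at 13.5, 10.8, 11.9, 11.5 and 12.2 CPM in Con-mGC. In EM-mGC it was at 7.59, 3.88, 8.71, 5.46 and 7.03 CPM. All of these were below the Con-mGC range, the lowest being EM-mGC replicate 2, and the log2 fold change was -0.88 (SE 0.20). It was -0.74 without EM-mGC replicate 2 and -1.001 without EM-mGC replicate 3.

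Acta2 and Tagln overlapped between the groups. Acta2 (ENSMUSG00000035783, chr19:34218490-34232990, minus strand) was at 273, 170, 166, 147 and 195 CPM in Con-mGC and at 154, 75.1, 230, 109 and 144 CPM in EM-mGC, a log2 fold change of -0.42 (SE 0.26). EM-mGC replicate 3 was the high EM-mGC library and EM-mGC replicate 2 the low one. The log2 fold change was -0.66 without the former and -0.26 without the latter. It was -0.24 without Con-mGC replicate 1, the highest Con-mGC library. Tagln (ENSMUSG00000032085, chr9:45840917-45847356, minus strand) ranged from 0.658 to 1.33 CPM in Con-mGC and from 0.460 to 1.99 CPM in EM-mGC, with a log2 fold change of 0.25 (SE 0.39). The sign of this value rests on EM-mGC replicate 3, as it was -0.0609 without that library, 0.45 without EM-mGC replicate 2 and 0.20 without EM-mGC replicate 4.

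In this comparison 3 of the 10 genes, Gli1, Myh11 and Cnn1, were lower in every EM-mGC library, against 0.778% of the 17229 genes tested, and nothing is read from this count because the genes were chosen on it. The genome-wide edgeR quasi-likelihood test with Benjamini-Hochberg adjustment called 0 genes (0%), with 1626 at an unadjusted p under 0.05, while DESeq2 called 116. The median log2 fold change of all genes tested was -0.01.

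The other genes of the pathway gave small differences. Of a list of 39 Hedgehog genes 36 passed the filter on low counts. The 30 of them that are not among the 10 genes had a median log2 fold change of -0.15, and 20 of the 30 were negative, against 51.8% of all genes tested. Smo, the most abundant receptor gene, was at -0.15 (SE 0.11) on the log2 scale, and Gas1, a coreceptor, was the highest of its list at 0.26 (SE 0.25). Gli3, the mainly repressive Gli factor, was the highest of the transducers at 0.40 (SE 0.34), Hhat, which acylates Hedgehog ligands, led the ligand and release genes at 0.30 (SE 0.18), and the target gene Foxf1 was at -0.11 (SE 0.40).

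The 13 smooth muscle genes tested that are not among the 10 genes had a median log2 fold change of -0.34, and 11 of the 13 were negative. Lmod1, an actin filament nucleator of smooth muscle, was the 1 gene of these 13 with all EM-mGC libraries below all Con-mGC libraries, at -0.79 (SE 0.20). Actg2, the enteric type of smooth muscle actin, was at 29.3 ± 5.38 CPM in Con-mGC and 17.7 ± 6.99 CPM in EM-mGC (SD, n = 5 each), and Myocd, the coactivator of smooth muscle genes, was at 22.9 ± 5.16 and 17.3 ± 2.18 CPM. Cald1, an actin-binding regulator found in many cell types, was at -0.02 (SE 0.16). Actin cytoskeleton genes and targets of the transcription factor SRF had a median of -0.13 over the 13 tested outside the 10 genes, with Ccn1 highest at 0.34 (SE 0.27) and Actb, the most abundant, at 0.02 (SE 0.19).

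Markers of other cells had differences in the same comparison, none of them called by edgeR. The 10 stromal fibroblast genes summed to 1791, 1683, 1660, 1743 and 1831 CPM in Con-mGC and to 1546, 671, 1173, 1178 and 1253 CPM in EM-mGC, so the groups did not overlap. Their most abundant gene, Col3a1, a fibrillar collagen, was at 653 ± 51.6 and 436 ± 126 CPM (SD, n = 5 each), none was at 0, and 9 of 10 had a negative log2 fold change with a median of -0.46. The lowest was Col1a1, another fibrillar collagen, at 395 ± 53.8 and 202 ± 67.9 CPM, with all EM-mGC libraries below all Con-mGC libraries and a log2 fold change of -0.96 (SE 0.21), beside -0.96 (SE 0.18) for Myh11. All 9 endothelial genes were negative, with a median of -0.28, sums of 203 to 237 CPM in Con-mGC and 117 to 207 CPM in EM-mGC, and Cdh5, the cadherin of endothelial junctions, as the most abundant gene in Con-mGC at 39.5 TPM. Cdh5 was at -0.49 (SE 0.17) on the log2 scale. Pericyte genes had a median of -0.35 over 7 tested, with sums of 124 to 153 CPM in Con-mGC and 78.4 to 171 CPM in EM-mGC, led by Pdgfrb. Medians were -0.08 for granulosa, 0.10 for theca, -0.01 for surface epithelial, 0.65 for red blood cell and -0.27 for oocyte genes. Leukocyte genes had the opposite sign to stromal genes. Their sums were 189.8 to 385.5 CPM in Con-mGC and 285 to 705 CPM in EM-mGC, with overlap, the median log2 fold change was 0.31, 8 of 10 were positive and none was at 0. The most abundant, Lyz2, the lysozyme of macrophages and neutrophils, was at 125 ± 47.0 and 276 ± 134 CPM, with a log2 fold change of 1.14 (SE 0.31), and the neutrophil genes S100a8 and S100a9 were at 3.43 (SE 0.83) and 2.92 (SE 0.69). The part of these cell types in the differences of Gli1, Myh11 and Cnn1 was not tested.

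Levels were also set beside the stromal sum. Per 1000 CPM of stromal genes, Gli1 was at 3.46 ± 0.526 CPM in Con-mGC, from 2.99 to 4.30, and at 2.50 ± 1.36 CPM in EM-mGC, from 1.56 to 4.90 (SD, n = 5 each). Myh11 was at 24.4 ± 3.96 and 20.2 ± 8.06 CPM per 1000 stromal CPM, and Cnn1 at 6.89 ± 0.462 and 5.67 ± 1.09. On this scale the groups overlapped for all 3 genes, each through 1 library. EM-mGC replicate 2, whose stromal sum is the smallest divisor of the ratio, was at 4.90 for Gli1 and 33.9 for Myh11. The other EM-mGC libraries ranged from 1.56 to 2.16 for Gli1 and from 13.3 to 19.8 for Myh11, and Con-mGC started at 2.99 and 21.2. For Cnn1 the library was EM-mGC replicate 3, at 7.42, the others ranged from 4.63 to 5.78, and Con-mGC started at 6.45. This shows where the overlap lies and nothing more, since the library set apart is the one that overlapped. Hhip was also lower in mean on this scale, at 1.66 in Con-mGC and 1.43 in EM-mGC. The remaining 6 genes had higher means in EM-mGC, each with overlap. Ptch1 was at 31.7 ± 4.90 and 44.5 ± 14.1, and Gli2 at 5.67 ± 0.929 and 7.98 ± 3.16. Dhh was at 14.9 ± 2.90 and 24.2 ± 19.4, and Tagln at 0.526 ± 0.159 and 0.943 ± 0.453. For all 6 the higher mean came with 1 high library each. For Gli2, EM-mGC replicate 2 was at 13.5, the other EM-mGC libraries at 5.80 to 7.57 and Con-mGC at 4.45 to 7.05. For Ptch1 it was at 68.0, the others at 32.7 to 45.9 and Con-mGC at 23.6 to 35.7. For Tagln, EM-mGC replicate 3 was at 1.70, the others at 0.631 to 1.04 and Con-mGC at 0.367 to 0.760. EM-mGC replicate 2 was at 57.7 for Dhh, the other EM-mGC libraries at 8.69 to 20.5 and Con-mGC at 12.6 to 19.7. For Ihh it was at 204, the others at 31.2 to 106 and Con-mGC at 56.3 to 91.1. For Acta2, EM-mGC replicate 3 was at 196, the others at 92.6 to 115 and Con-mGC at 84.4 to 152.

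**Figure D2:**
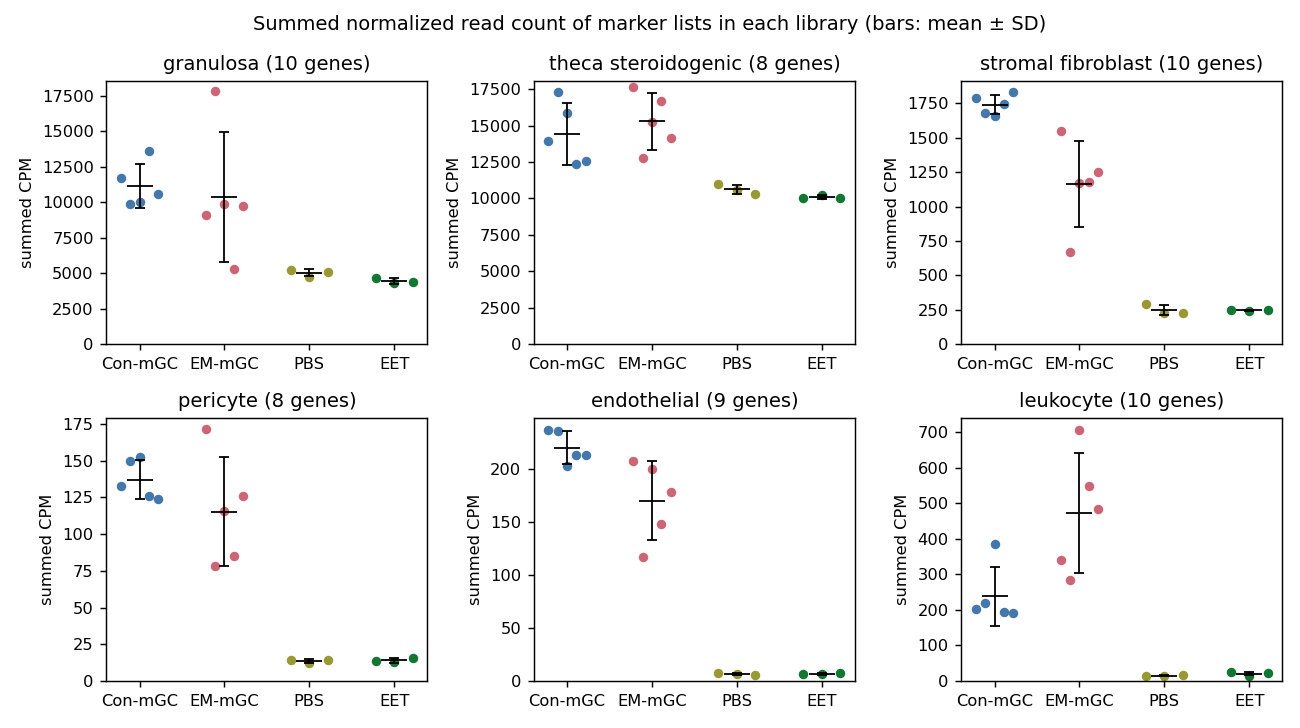
Summed normalized read count (CPM, linear axes from 0) of 6 marker lists in every library, with 1 point per library and bars for mean ± SD (Con-mGC and EM-mGC n = 5, PBS and EET n = 3). The stromal fibroblast sums of EM-mGC, from 671 to 1546 CPM, lie below all Con-mGC sums, and pericyte and endothelial sums are small in both cultured groups.

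Within groups, the 10 genes varied in distinct sets over the 10 fresh libraries. After subtraction of group means from log2 CPM, Gli1 went with Gli2 (Pearson r = 0.81), Myh11 (0.73) and Hhip (0.64). Acta2 and Cnn1 formed another pair (r = 0.93), as did Ihh and Dhh (r = 0.88). Myh11 went little with Acta2 (r = 0.15) and Cnn1 (0.17), and ran opposite to Tagln (-0.51), whose counts are uncertain. Gli1 was at -0.76 with Tagln, and Ptch1 was at -0.10 with Gli1. Cnn1 followed the summed stromal genes (r = 0.82), and so to a lesser degree did Acta2 (0.64), while Gli1 was at -0.10 and Myh11 at 0.21. Cnn1 was higher with the summed endothelial genes (r = 0.92) and red blood cell genes (0.85), and Acta2 was at 0.84 and 0.86 with these lists. Gli1 ran opposite to the summed leukocyte genes (r = -0.82), as did Myh11 (-0.61). These are descriptions over 10 libraries that share total count, cell mixture and normalization between their genes, and subtracting group means leaves fewer free values.

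**Figure D3:**
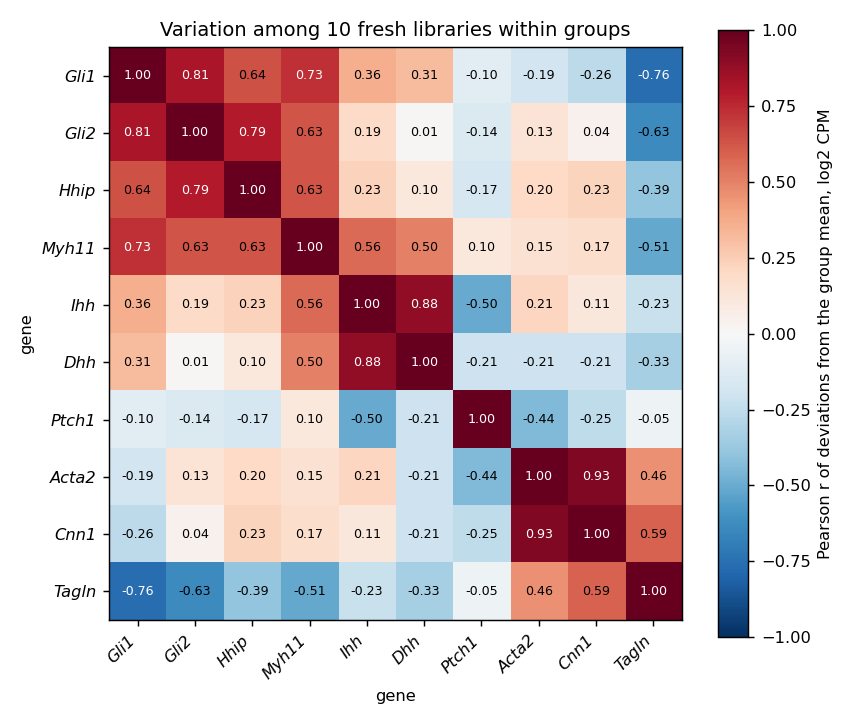
Pearson r between each pair of the 10 genes over the 10 fresh libraries, from log2 CPM after subtraction of the Con-mGC or EM-mGC mean (colour from -1 to 1, value in each cell). Gli1, Gli2, Hhip and Myh11 are positive with each other, from 0.63 to 0.81, Acta2 with Cnn1 is 0.93, and Ihh with Dhh is 0.88.

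Among 13189 genes, those whose within-group variation was most like that of Gli1 were Sf3b2 (r = 0.94), Zfp235 (0.94), Tmem86b (0.93), Scube1 (0.92) and Syvn1 (0.91). Scube1 belongs to the secreted proteins that help release Hedgehog ligands and was on the list of ligand and release genes. For Myh11 they were Slc26a6 (r = 0.94), Rgs3 (0.88), Mcm3ap (0.88), Tmem161b (0.87) and Map3k15 (0.87). None of the 10 genes appears in these rankings, which are over 10 libraries and are the highest of many.

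In cultured cells Cnn1 fell with 14,15-EET, and it was the only one of the 10 genes that was called. Cnn1 was at 9.82, 10.5 and 7.99 CPM in PBS and at 5.88, 5.44 and 6.07 CPM in EET. Every EET library was below every PBS library, and Cnn1 fell by 0.70 on the log2 scale (SE 0.13, edgeR quasi-likelihood test, adjusted p = 0.0166), 1 of 8 genes tested against 1.22% of the 15050 genes tested. Without EET replicate 1, 2 or 3 the adjusted p of Cnn1 was 0.0578, 0.110 and 0.0920 in edgeR, with log2 fold changes of -0.71, -0.66 and -0.73.

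Myh11 had the opposite sign. It was at 4.93, 3.85 and 5.54 CPM in PBS and at 7.17, 5.64 and 8.08 CPM in EET. All EET libraries were above all PBS libraries, which was so for 8.48% of genes tested, while EET below PBS throughout, as for Cnn1, was so for 9.17%. The log2 fold change of Myh11 was 0.54 (SE 0.17) and was not called (edgeR, adjusted p = 0.178). With the replicate number as a block it was called, at 0.54 (edgeR adjusted p = 0.0422), and 341 genes were called in that fit. The study's methods speak of paired cultures. By the two-sided exact permutation test the p of both Myh11 and Cnn1 was 0.1, the smallest that 3 against 3 libraries allow.

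Acta2 was at 650, 484 and 497 CPM in PBS and at 419, 454 and 488 CPM in EET. The groups overlapped, and the log2 fold change was -0.26 (SE 0.10, edgeR adjusted p = 0.296). It was -0.11 without PBS replicate 1, the highest library, and -0.34 without PBS replicate 2. Ptch1 was nearly level, from 42.8 to 47.6 CPM in PBS and from 44.5 to 46.8 CPM in EET, with a log2 fold change of 0.02 and a 95% interval from -0.10 to 0.13. Gli2 was at 0.01 on the log2 scale (interval -0.37 to 0.39), Dhh at -0.09 (-0.37 to 0.18), Ihh at -0.53 (-1.10 to 0.04) and Tagln at -0.00426 (-0.68 to 0.68), and none of these was called. Gli1 and Hhip did not pass the filter for the edgeR test, as they had 23 and 3 reads in all of PBS and 15 and 2 reads in all of EET. Their two-sided exact permutation test gave p = 0.8 and 1. The smallest p of that test with 3 against 3 libraries is 0.1, so it could not have called a difference in either gene.

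Boc, a coreceptor that helps ligands bind Ptch1, was the only further Hedgehog gene called among 31 tested. It was at 86.4 ± 5.72 CPM in PBS and 62.4 ± 2.22 CPM in EET (SD, n = 3 each), it fell by 0.47 on the log2 scale (SE 0.06, edgeR adjusted p = 0.00259), and it stayed called without any one library. The most abundant receptor gene, Smo, was at -0.09 (SE 0.04) on the log2 scale, and Scube3, another release factor, was at -0.25 (SE 0.06, edgeR adjusted p = 0.0790). Of 16 smooth muscle genes tested, Cnn1 alone was called, the median was 0.02, and Cald1 was at 0.06 (SE 0.08).

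Of 37 cell type marker genes tested between PBS and EET, 3 were called, each lower in EET, against 1.22% of all genes tested. Of 8 stromal genes tested only Ogn was called, at -0.78 (SE 0.15, edgeR adjusted p = 0.0230), with sums of 224 to 293 CPM in PBS and 244 to 250.5 CPM in EET. Inha, of the granulosa list, was at -0.36 (SE 0.08, edgeR adjusted p = 0.0430), and Krt18, of the surface epithelial list, was at -0.29 (SE 0.05, edgeR adjusted p = 0.0152). These 3 calls were each lost when single libraries were left out, with edgeR adjusted p up to 0.130 for Ogn, 0.280 for Inha and 0.151 for Krt18. No theca (5 tested), pericyte (3), endothelial (4), leukocyte (3) or oocyte gene (1) was called, and no red blood cell gene could be tested.

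**Figure D4:**
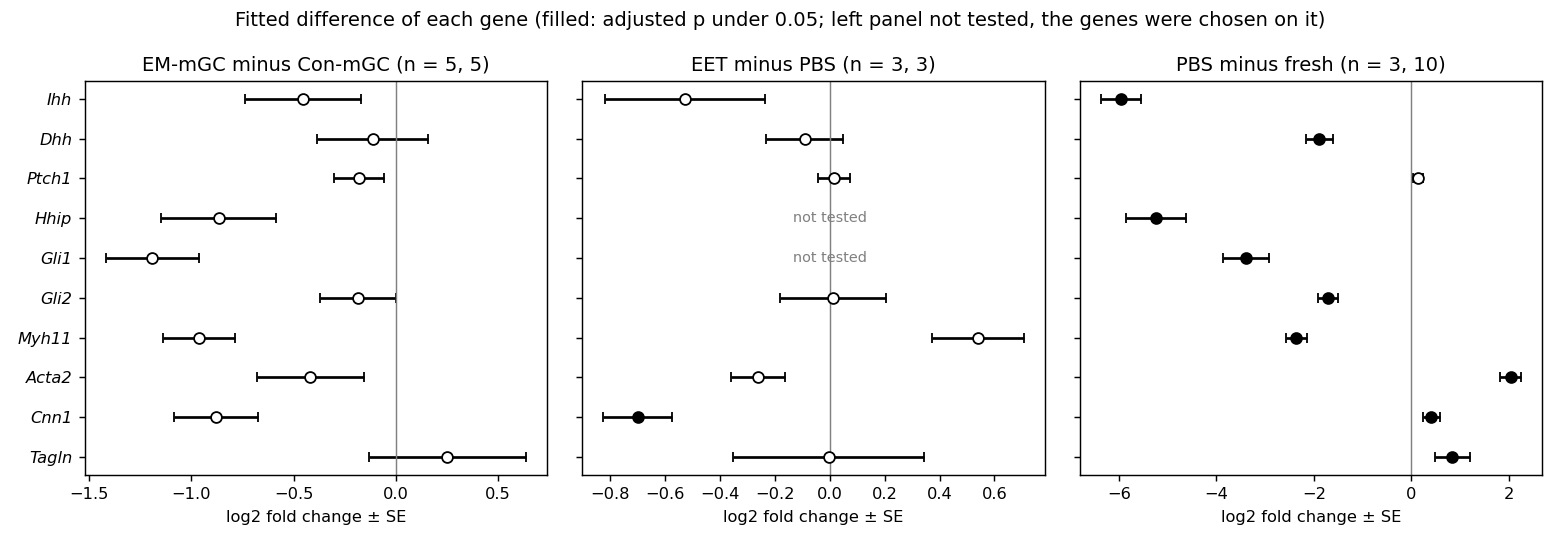
Fitted log2 fold change ± SE of each of the 10 genes, in EM-mGC minus Con-mGC (left), EET minus PBS (middle) and PBS minus fresh (right), each panel with its own linear axis. Filled points had an edgeR adjusted p under 0.05, and the left panel shows no test because the genes were chosen on it. Cnn1 is the filled point among the EET values, at -0.70, and Ihh has the lowest value against fresh cells, -5.96. Gli1 and Hhip in the right panel passed the filter on low counts only through the fresh libraries, so their values are a description.

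Most genes, and most of the 10, differed between cultured and fresh cells. PBS cells came from EM model mice, so a difference between EM-mGC and Con-mGC, as in the choice of genes, can enter a comparison with both. PBS was compared with the mean of Con-mGC and EM-mGC, at equal weight, in a fit of all 16 libraries normalized together. Levels in what follows are on that joint CPM scale. Culture, experiment, depth and sequencing run cannot be told apart here. edgeR called 34% of the 18484 genes tested as higher and 41.9% as lower in PBS, so that a call of a single gene is common, and the median log2 fold change of all genes was -0.16 with TMM and -0.21 with RLE scaling.

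Both ligand genes fell. Ihh was at 106 ± 34.1 CPM in fresh cells (SD, n = 10) and 1.69 ± 0.510 CPM in PBS (SD, n = 3), a log2 fold change of -5.96 (SE 0.41, edgeR adjusted p = 1.4e-09). From 109 reads in all of PBS, the ratio of fresh to PBS on unscaled totals was 79.6, with a 95% counting interval of 66.0 to 97.0. Dhh was at 22.9 ± 7.08 CPM in fresh cells and 6.20 ± 0.926 CPM in PBS, a log2 fold change of -1.89 (SE 0.29, edgeR adjusted p = 1.5e-05). The lowest fresh library was above all PBS libraries for both genes, as it was for 30.7% of all genes tested.

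Among the receptor and response genes Gli2 fell and Ptch1 was not called, while Gli1 and Hhip were nearly without reads in PBS. Gli2 was at 8.55 ± 1.72 CPM in fresh cells and 2.59 ± 0.230 CPM in PBS, a log2 fold change of -1.72 (SE 0.20, edgeR adjusted p = 9.8e-07). Gli1 was at 3.99 ± 1.83 and 0.334 ± 0.324 CPM, and its log2 fold change was -3.39 (SE 0.47). In EM-mGC alone Gli1 was at 2.43 ± 0.616 CPM. The ratio of fresh to PBS was 14.5 on unscaled totals (95% counting interval 9.59 to 23.0). Of its 23 PBS reads 17 were in PBS replicate 3, without which the log2 fold change was -4.58. Hhip had 3 reads in all of PBS, each of them in PBS replicate 3, and its ratio was 56.8 (19.3 to 277). Gli1 and Hhip passed the filter on low counts only through the fresh libraries and so had to be lower in PBS, which makes their values a description. Ptch1 was at 47.7 ± 6.78 CPM in fresh cells and 52.2 ± 2.93 CPM in PBS, a log2 fold change of 0.13 (SE 0.11, 95% interval -0.07 to 0.34, edgeR adjusted p = 0.260), and it was -0.07 when only genes with 10 counts in every library were kept.

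The smooth muscle genes split. Myh11 was at 29.8 ± 11.8 CPM in fresh cells and 5.49 ± 1.02 CPM in PBS, and fell by 2.36 on the log2 scale (SE 0.21, edgeR adjusted p = 3.6e-08). In EM-mGC alone Myh11 was lower than in all fresh cells, at 20.3 ± 4.66 CPM. Its EM-mGC libraries, from 14.3 to 26.1 CPM, were still above its PBS libraries, from 4.39 to 6.41 CPM. Acta2 was at 153 ± 52.5 CPM in fresh cells and 625 ± 107 CPM in PBS, and rose by 2.04 on the log2 scale (SE 0.22, edgeR adjusted p = 2.7e-07), every PBS library being above every fresh one, as for 28.1% of all genes tested. Cnn1, at 8.52 ± 2.95 and 10.8 ± 1.43 CPM, and Tagln, at 0.923 ± 0.396 and 1.66 ± 0.868 CPM, lay at the threshold, with log2 fold changes of 0.41 (SE 0.18) and 0.84 (SE 0.36) and an edgeR adjusted p of 0.0423 and 0.0421. PBS cells came from EM model mice, and Cnn1 differed between the fresh groups, at 11.02 CPM in Con-mGC and 6.03 CPM in EM-mGC. Its PBS libraries, from 9.24 to 11.98 CPM, were above all EM-mGC libraries, from 3.58 to 8.04 CPM, and overlapped the Con-mGC range of 9.95 to 12.5 CPM. That is a description, since EM-mGC values took part in choosing the genes. Tagln was at 0.72 against EM-mGC alone (edgeR adjusted p = 0.129). Both calls against all fresh libraries were lost with RLE scaling (edgeR adjusted p of 0.0793 for Cnn1 and 0.0570 for Tagln), and without PBS replicate 1 the log2 fold change of Tagln was 0.41. Without EM-mGC replicate 3 the log2 fold changes of the other 8 genes kept their sign and call.

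The pathway outside the 10 genes went partly the other way. Of 30 further Hedgehog genes tested, 27 passed the filter on low counts in the fresh and in the cultured libraries alike, and of these 15 rose and 2 fell in PBS. Of all 14382 genes that passed in both sets of libraries 41.5% rose and 30.8% fell. The remaining 3, which include Gpc3 and Foxf1, passed only through the fresh libraries and so had to be lower. Boc rose by 2.37 (SE 0.12), from 19.3 ± 3.57 CPM in fresh cells to 99.3 ± 7.24 CPM in PBS, and Smo rose by 1.36 (SE 0.09), from 89.9 ± 10.9 to 230 ± 7.17 CPM. Scube3 rose by 4.04 (SE 0.16), and Scube1, Hhat and Disp1, which export or modify ligands, rose by 1.84, 1.23 and 1.04. Gpc3, a proteoglycan that binds Hedgehog, was at -5.43 (SE 0.33). Of the target genes, Ptch1 alone passed the filter in both sets of libraries. Of the 18 transducers that did so, 9 rose and 2 fell, with Gli3 highest at 1.63 (SE 0.25), and Prkaca, a catalytic subunit of protein kinase A and the most abundant transducer in Con-mGC at 181 TPM, rose by 0.55 (SE 0.13). Each named rise in this paragraph, and the falls of Lrp2 and Evc2, had an edgeR adjusted p below 0.05. The value of Gpc3 is a description, since it had to be lower.

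In the smooth muscle list 5 of the 16 genes that passed the filter in both sets of libraries rose and 6 fell, which is close to the shares of all such genes, so that nothing is read from these counts. Cald1 rose most, by 4.02 on the log2 scale (SE 0.14), from 138 ± 24.6 CPM in fresh cells to 2240 ± 226 CPM in PBS, and Tpm2, a tropomyosin, rose by 2.24 (SE 0.18). Des, the muscle intermediate filament protein, fell most, by 3.59 (SE 0.34). Mylk, which phosphorylates myosin light chain, fell by 1.66 (SE 0.19), and Actg2 fell by 1.59 (SE 0.26). In the list of actin cytoskeleton genes and SRF targets, 15 of the 16 that passed in both sets rose and none fell. Of all such genes 41.5% rose and 30.8% fell. The 15 include Cnn1 and Tagln, whose calls were lost with RLE scaling, and Tgfb1i1 was lowest at 0.06 (SE 0.14). Ankrd1 was at 0.138 ± 0.148 CPM in fresh cells and 550 ± 90.8 CPM in PBS, and passed the filter only through the cultured libraries. Ccn1 was at 52.3 ± 22.7 and 1117 ± 213 CPM. Calls in this paragraph are of the edgeR test with adjusted p under 0.05, and Acta2, Cnn1 and Tagln are on both lists.

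**Figure D5:**
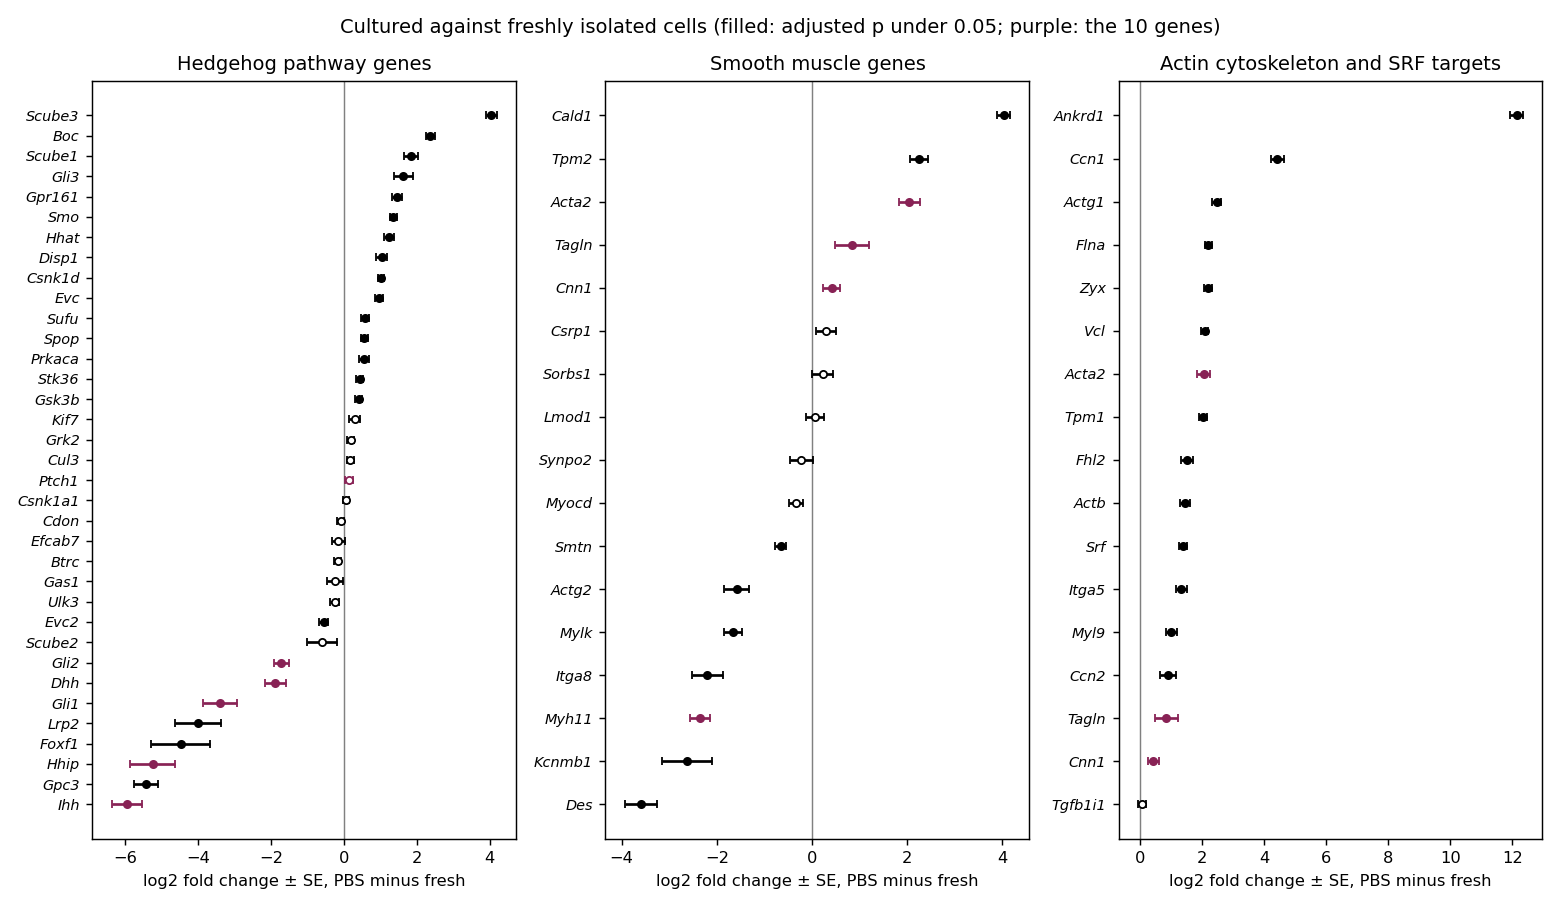
Log2 fold change ± SE of PBS minus fresh cells for genes tested of the Hedgehog lists (left), the smooth muscle list (middle) and the list of actin cytoskeleton genes and SRF targets (right), sorted by value on linear axes. Filled points had an edgeR adjusted p under 0.05 and the 10 genes are in purple. Ihh, Gpc3 and Hhip, the last with 3 reads in PBS, are at the bottom of the left panel, where Gpc3, Hhip, Gli1 and Foxf1 passed the filter only through the fresh libraries, Myh11 and Acta2 lie on opposite sides of 0 in the middle panel, and all points of the right panel are above 0.

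Pericyte, endothelial, leukocyte and oocyte markers had low levels in culture, and stromal markers lower ones than in fresh cells. Many of them passed the filter only through the fresh libraries and so had to be lower in PBS, namely 4 of 7 pericyte, 5 of 9 endothelial, 7 of 10 leukocyte, all 5 red blood cell, 7 of 8 oocyte and 2 of 10 stromal genes. Among those that passed in both sets of libraries, all 3 pericyte, 4 endothelial and 3 leukocyte genes fell, as did the 1 oocyte gene and 7 of 8 stromal genes, beside the 30.8% of all such genes. Summed levels in PBS, normalized within the cultured libraries, were 12.2 to 14.6 CPM for pericyte, 5.72 to 7.26 CPM for endothelial, 13.6 to 16.01 CPM for leukocyte and 224 to 293 CPM for stromal genes. Col1a1, the most abundant stromal gene in PBS, was the one stromal gene not called, at -0.16 (SE 0.20). Of the 5 theca genes that passed in both sets 1 rose and 2 fell, with Aldh1a1 at 2.89 (SE 0.14). Cyp17a1 had 2 reads in all of PBS and 0 in EET, against 15555 in Con-mGC and 15882 in EM-mGC. Of 8 such granulosa genes 7 fell, and of 5 such surface epithelial genes 2 rose and 3 fell, with Krt18 at 2.64 (SE 0.22). The summed surface epithelial genes were at 153.9 to 167.8 CPM in PBS and 141 to 207 CPM in Con-mGC, and the theca sum, of which Hsd3b1 is the most abundant gene, was at 10617 ± 330 and 14410 ± 2149 CPM (SD, n = 3 and 5), with each set normalized on its own. The endothelial gene Cldn5 was at 0 in both cultured groups. The part of these cell types in the differences of Gli1, Hhip, Myh11 and Acta2 was not tested.

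Acta2, which rose in culture, is known as an SRF target, and its promoter is shown because the smooth muscle genes split in that comparison. RefSeq promoters of build GRCm38.p6, from 250 bases before to 50 bases after the start, were matched for 7 of the 10 genes and not for Gli1, Myh11 and Tagln. The sequence below runs 5′ to 3′ on the minus strand over the 130 bases before the annotated start, chr19:34255374-34255503, with 2 stretches in capitals that match the CArG box, the SRF motif, with 1 other base allowed in its A/T core.

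Acta2: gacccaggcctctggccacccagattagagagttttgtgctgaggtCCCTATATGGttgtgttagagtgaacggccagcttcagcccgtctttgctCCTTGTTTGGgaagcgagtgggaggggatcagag

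The boxes begin 84 and 34 bases before the start, at chr19:34255448-34255457 and chr19:34255398-34255407. Among the 7 promoters Acta2 has 2 such boxes and Dhh, which fell in culture, has 1, while Cnn1 has none in this window. A box with 1 other base is found in 9.98% of 32851 mouse promoters of this length, and the strict CArG box is found in 1.63% of them and in none of the 7. The Gli motif GACCACCCA, searched on both strands, is in none of the 7 and in 0.253% of all promoters. Its core CCACCCA, which the longer motif contains, is in Acta2 alone of the 7 and in 9.3% of all. Such matches describe letters in this window and locate no binding.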

How the data were processed

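The authors deposited raw read counts per Ensembl gene from featureCounts, without normalization, for 57010 genes in 16 libraries, and both tables were used whole. The submitters' processing notes name fastp, HISAT2, StringTie and GRCm39. Their versions, the strand setting and the treatment of multi-mapping reads are not given in the sources used here.

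Counts were analysed in R 4.3.3 with edgeR 4.0.16: filterByExpr by group, TMM factors, and the quasi-likelihood test with Benjamini-Hochberg adjustment over all genes, called at 0.05. The fresh, the cultured and all 16 libraries each had their own fit. The steps were tested on simulated data. DESeq2 1.42.0, which the study's methods name, RLE factors, other filters, the replicate number as a block, other contrasts and leaving out each library were alternatives. CPM used TMM factors, and TPM used union exon lengths of GENCODE M21 (GRCm38), matched for 52029 genes, without mitochondrial genes. Two-sided exact permutation tests used log2(CPM + 0.5). Counting intervals are exact and cover counting error only.

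The 10 genes and all lists were chosen with earlier results of these data known. From each list the most abundant gene and those with the highest and lowest fold change were eligible to be named, and for Gli1 and Myh11 the 5 most alike genes. Other genes were named after their values were seen. Within groups, no 2 libraries agreed within sampling noise. That they are separate mice or cultures rests on the labels and the methods, and otherwise p-values measure only the spread between these libraries. One gene of the Hedgehog lists is not reported here.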

Additional observations from a re-analysis of the deposited data

How the results depend on the processing

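Precision is limited by 3 to 5 libraries a group and, for Gli1, Hhip and Tagln, by few reads. For EM-mGC against Con-mGC the number of genes called, 0 in edgeR, was 116 with DESeq2, 4 without a filter and 2 with the replicate block, and 0 to 46 when each library was left out, the 46 without Con-mGC replicate 3. Of the 10 genes, 3 to 4 were lower in every EM-mGC library, and nothing is read from this count because the genes were chosen on this comparison. For EET against PBS the 184 genes called became 322 with DESeq2, 662 without a filter, 341 with the replicate block and 48 to 436 without single libraries (436 without PBS replicate 2, 48 without EET replicate 3). Of the 10 genes, 3 were called without a filter, where Myh11 and Acta2 joined Cnn1 (edgeR adjusted p of 0.00675 and 0.000187), 2 with the replicate block (Myh11, 0.0422), and 0 to 1 without single libraries. In culture against fresh cells, 5 were called when every library needed 10 counts. Gli1, Hhip and Tagln were then not tested and Cnn1 was not called (0.21, edgeR adjusted p = 0.277). Cnn1 and Tagln were also not called with DESeq2 (adjusted p of 0.0601 and 0.0606), and Cnn1 was at 0.06 when EET was averaged with PBS.

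Signs turned for values that were not called. In EM-mGC against Con-mGC these were Tagln, -0.0609 without EM-mGC replicate 3, and Dhh, 0.0806 without EM-mGC replicate 4. In EET against PBS these were Tagln, 0.000454 with 10 counts in every library and 0.0235 with the replicate block, and Gli2, -0.000484 with the block. Without single libraries Gli2 ranged from -0.14 to 0.10, Ptch1 from -0.0213 to 0.0520 and Tagln from -0.35 to 0.42. Ptch1 against fresh cells was -0.0679 with 10 counts in every library. The cause was not tested.

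The replicate numbers were not taken as pairs. Same-numbered PBS and EET libraries had correlations of deviations of 0.124, 0.312 and -0.103, and Con-mGC and EM-mGC of -0.309 to 0.187. The methods speak of paired cultures without saying how numbers mark them, so the blocked value of Myh11 stands beside its unblocked one.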
